A study of Homo sapiens with 3 samples.

Results

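The genes described here carry symbols that begin with SNX, CHMP or VPS followed by a digit, which gathers the sorting nexins, the charged multivesicular body proteins and the vacuolar protein sorting genes. They were chosen by symbol alone, from the probe sets that the platform table lists with 1 gene, with antisense genes left out. The rule took 183 probe sets of 76 genes, of 19775 genes measured on the arrays: 31 SNX, 9 CHMP and 36 VPS genes. They include 1 pseudogene, SNX29P2, and 1 noncoding transcript, VPS13C-DT, that share the symbol stems.

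RNA came from THP-1, an established human monocytic leukemia cell line, grown as undifferentiated precursors or turned into adherent macrophage-like cells with phorbol myristate acetate (PMA), an activator of protein kinase C. A single biotin-labelled array was run for each of 3 cultures, called undifferentiated, PMA 3 days and PMA 8 days by their labels. PMA 3 days cells were exposed to 200 nM PMA during 24 h and kept PMA-free for 3 days, and PMA 8 days cells were exposed during 72 h and kept PMA-free for 5 days, so the length of exposure and the time since exposure differ together. The first pair of times adds up to more than the labelled 3 days, so the total time of that culture is unclear, and the labels are used here as names. Medium with 2% serum was given 16 h before RNA isolation, and the protocol does not say whether the undifferentiated cells received it. With 1 array per condition there is no test, no p-value and no replicate error in any comparison below.

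Signals are the deposited linear values, and a floor of 149.8, the median over the 3 arrays, replaced lower ones before log2 ratios were taken. Each gene was read from its brightest probe set, and "higher" or "lower" as a call means a ratio of at least 2-fold between 2 arrays. The one error that can be given is how far a gene's own probe sets differ in their ratios, pooled over 5180 genes as an SD on the log2 scale. Only probe sets above the floor on all 3 arrays entered this SD, so dimmer ones are left out. Against undifferentiated cells it was 0.43 at PMA 3 days and 0.44 at PMA 8 days, between the PMA arrays it was 0.27, and it holds no culture or labelling error. Between 48.5% and 51.4% of probe sets lay above the floor on each array. The ratio of 3' to 5' signal was 1.36 to 1.49 for actin and 1.10 to 1.16 for GAPDH. Spiked poly-A transcripts, which report on labelling, were brighter by a median of 0.31 (log2) at PMA 3 days and of 0.02 at PMA 8 days than on the undifferentiated array. Of the macrophage markers 6 of 6 measured lay above the floor on both PMA arrays and 4 of 6 on the undifferentiated array, with summed signals of 8254 undifferentiated, 128959 at PMA 3 days and 93258 at PMA 8 days. The 4 proliferation markers summed to 57500, 18394 and 39204 in the same order, 6 progenitor and granule markers to 135177, 2383 and 3108, and 5 monocyte markers to 54863, 8981 and 4691. Among the monocyte markers 4 were called lower at both PMA times. FCN1 went the other way, at 54.3, 221 and 240, from below the floor in undifferentiated cells. CD14 was counted with the macrophage markers, at 850, 34195 and 22449. Of 4 T, B and NK cell markers 1, 1 and 0 lay above the floor (sums 476, 310 and 372), of 3 erythroid and megakaryocyte markers 2, 2 and 3 (659, 979 and 916) and of 6 fibroblast, epithelial and endothelial markers 3 on each array (22106, 23598 and 20925). PECAM1, which monocytic cells also express, made up most of that last sum (21258, 20720 and 18665). The collagen gene COL1A1 was higher after PMA, at 464, 2337 and 1828 (5.03-fold and 3.94-fold over undifferentiated), and the platelet factor PF4 was at least 2.73-fold higher at PMA 3 days and at least 1.89-fold at PMA 8 days. CD3E, CD3D, MS4A1, EPCAM, CDH5 and PDGFRB were below the floor on all 3 arrays. The part of these marker changes in the values below was not tested. In RNA from whole cultures, fewer cells with a transcript and less of it per cell cannot be told apart.

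Endosomes sort membrane proteins taken up from the cell surface either back to the surface or Golgi, or onward to the lysosome. Sorting nexins bind endosomal lipids through a PX domain, and those that also have a BAR domain bend the membrane into recycling tubules. Retromer and retriever select cargo for those tubules, whereas the ESCRT complexes push ubiquitin-marked cargo into the endosome and seal membranes elsewhere in the cell, for example in cell division. HOPS and CORVET tether endosomes and lysosomes for fusion, GARP and EARP tether vesicles that return from endosomes, and VPS13 proteins move lipids between membranes. Macrophages rely on this machinery for uptake and digestion.

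Most of these genes lay near the same level on all 3 arrays, and a small set was higher after PMA: SNX9, SNX7, SNX6, SNX25, CHMP1B and VPS26C. VPS51 was lower on both PMA arrays and SNX16 on the PMA 8 days array. Of 71 genes that exceeded the floor on either array, 6 were called higher and 1 lower at PMA 3 days over undifferentiated, where 10.3% of all genes were called higher and 10.7% lower. Of 72 genes at PMA 8 days over undifferentiated 6 were called higher and 2 lower, against 9.72% and 8.39% of all genes. The 6 higher genes were the same in both comparisons, which share the undifferentiated array. With 8.45% and 8.33% of members called higher, that share is near the one of all genes. Called lower were 1.41% and 2.78% of the members. At PMA 8 days over PMA 3 days 0 of 70 were called in either direction, where 1.37% of all genes were called higher and 0.934% lower.

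**Figure D1:**
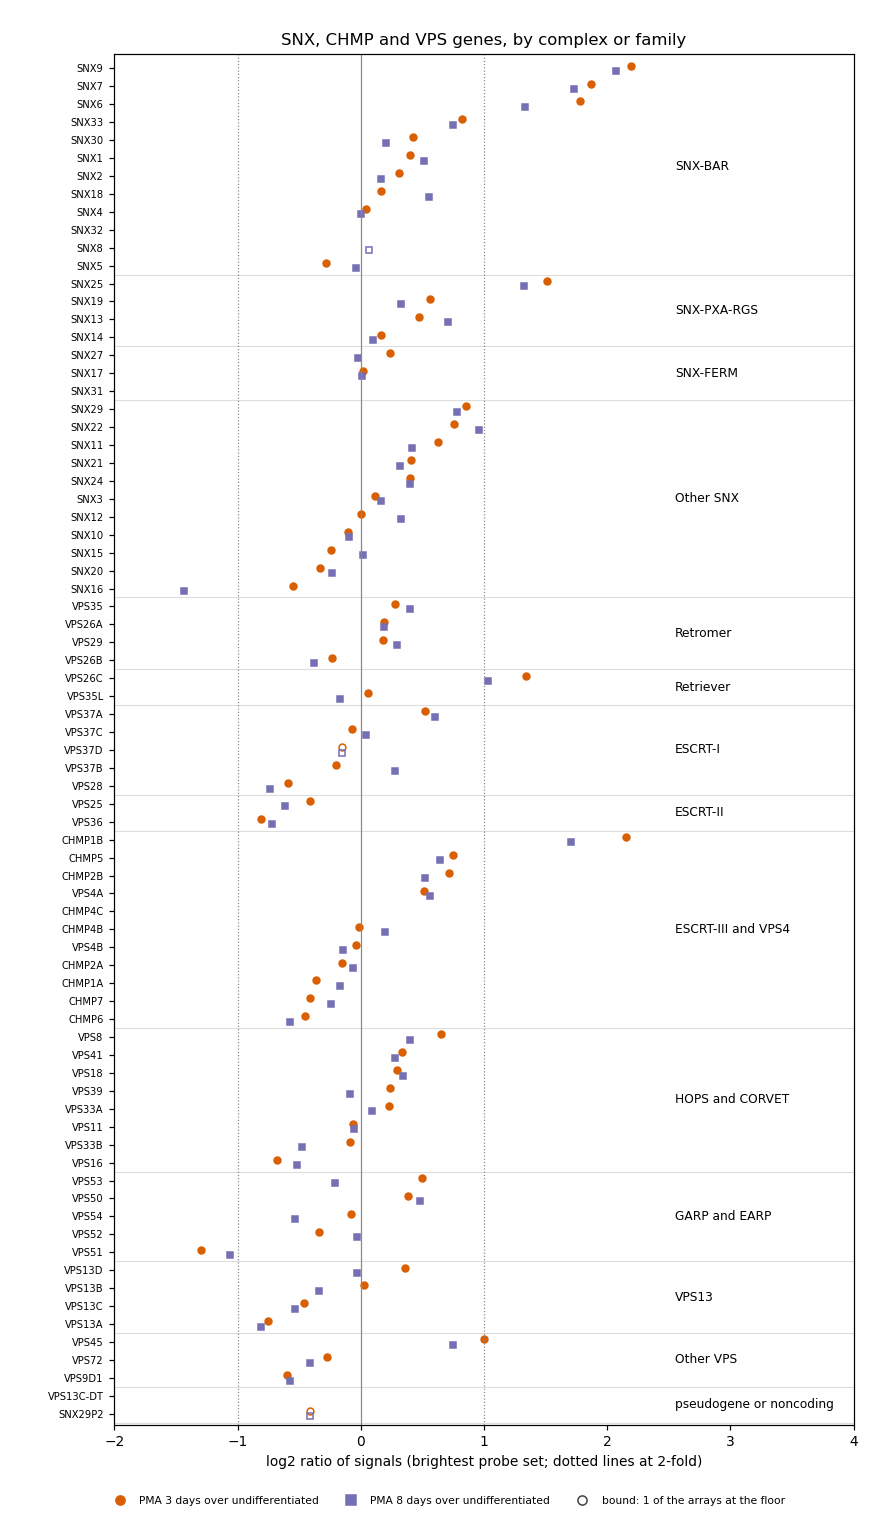
Log2 ratio (x axis) of each SNX, CHMP and VPS gene (rows, grouped by complex or family) in PMA 3 days over undifferentiated (circles) and PMA 8 days over undifferentiated (squares), from the brightest probe set on 1 array per condition. Open symbols are bounds, dotted lines mark 2-fold, and rows without a symbol were below the floor. SNX9, SNX7, SNX6, SNX25, CHMP1B and VPS26C lie right of 2-fold at both times, and VPS51 lies left of it.

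The letters before the transcription start of 4 of the higher genes are shown so that a reader can see what their promoters hold. The genes were picked for their ratios, so that they are higher together follows from the choice. Each line gives the 250 bases before the start on the gene's own strand, 5′ to 3′, from RefSeq on GRCh38.p14. Capitals mark matches to the cyclic AMP response element TGACGTCA or the GC box GGGCGG on either strand. The windows are chr6:157822996-157823245 (+) for SNX9, chr14:34630149-34630398 (-) for SNX6, chr1:98661471-98661720 (+) for SNX7 and chr18:11851163-11851412 (+) for CHMP1B.
SNX9: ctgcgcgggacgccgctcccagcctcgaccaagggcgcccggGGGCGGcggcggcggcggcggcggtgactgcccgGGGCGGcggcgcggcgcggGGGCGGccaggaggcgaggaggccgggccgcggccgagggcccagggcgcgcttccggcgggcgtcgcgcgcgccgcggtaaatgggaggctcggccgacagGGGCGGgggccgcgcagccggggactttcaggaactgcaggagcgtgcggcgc
SNX6: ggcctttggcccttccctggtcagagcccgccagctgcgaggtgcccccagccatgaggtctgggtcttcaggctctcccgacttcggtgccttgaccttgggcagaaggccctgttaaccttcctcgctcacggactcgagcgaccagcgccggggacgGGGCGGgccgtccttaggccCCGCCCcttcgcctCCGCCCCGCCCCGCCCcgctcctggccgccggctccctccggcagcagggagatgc
SNX7: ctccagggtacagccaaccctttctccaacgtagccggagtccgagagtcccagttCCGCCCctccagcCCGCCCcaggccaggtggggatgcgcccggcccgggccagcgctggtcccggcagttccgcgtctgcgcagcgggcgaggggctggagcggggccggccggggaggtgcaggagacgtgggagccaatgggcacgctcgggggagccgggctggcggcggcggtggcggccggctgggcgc
CHMP1B: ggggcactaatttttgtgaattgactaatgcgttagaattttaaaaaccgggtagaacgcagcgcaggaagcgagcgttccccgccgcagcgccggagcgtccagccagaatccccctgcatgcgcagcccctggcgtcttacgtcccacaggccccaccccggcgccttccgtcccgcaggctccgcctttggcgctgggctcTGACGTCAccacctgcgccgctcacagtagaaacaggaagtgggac

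The SNX9 window held 4 GC boxes and was 83.6% G and C, where the median of 35116 promoters in the RefSeq table was 58%. SNX6 held 5 GC boxes, some of them overlapping by 1 base, and SNX7 held 2. CHMP1B held no GC box and 1 cyclic AMP response element. Counted per gene, a GC box was in 5 of the 6 higher genes (all but CHMP1B) and in 46.2% of 27305 genes with a promoter in the table (42.6% of windows). The cyclic AMP response element was in 1 of the 6 and in 2.03% of genes (1.65% of windows). The AP-1 motif TGANTCA, searched because AP-1 is a classic target of phorbol esters, was in 0 of the 6 and in 8.06% of genes (6.57% of windows). The E-box CACGTG was in 1 of the 6 (VPS26C) and in 7.73% of genes (6.34% of windows), and the CCAAT box in 2 of the 6 (SNX7 and VPS26C) and in 37.0% of genes (32.0% of windows). Both strands were searched, and a match is a description of these letters and no evidence of binding. The table held promoters of 55 of the 76 genes, too few for a check over the members as a group, so nothing particular to the higher genes can be read from these motifs.

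SNX-BAR proteins, the sorting nexins that curve membranes, held 3 of the 6 higher genes. Of 12 genes 10 passed the filter at PMA 3 days over undifferentiated, 3 were called higher and 0 lower (10.3% and 10.7% of all genes), and the median log2 ratio was 0.41, against -0.12 over all genes. At PMA 8 days over undifferentiated the counts were 3 and 0 of 11 (9.72% and 8.39% of all genes), with a median of 0.51 against -0.07 over all genes. After scaling to the poly-A controls the SNX-BAR medians were 0.10 and 0.49, against -0.40 and -0.09 over all genes. SNX32 was below the floor on all 3 arrays. SNX8 was above it only at PMA 8 days, at 157 signal units, by the 1 probe set listed with no other gene.

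SNX9 is a nexin with an SH3 domain that binds dynamin and N-WASP and acts in clathrin-mediated endocytosis and macropinocytosis. By the brightest probe sets it had the largest ratios among all 76 genes on both PMA arrays. At PMA 3 days CHMP1B was close to it (log2 2.15), and the other probe set of SNX6 gave a larger ratio (2.31). SNX9 signals were 1631 undifferentiated, 7465 at PMA 3 days and 6872 at PMA 8 days. Both PMA arrays are several times above the undifferentiated one and near each other. The ratios were 4.58-fold at PMA 3 days and 4.21-fold at PMA 8 days over undifferentiated (log2 2.19 and 2.08). Its other probe set gave 1218, 3878 and 3479, with log2 ratios of 1.67 and 1.51. Its nearest relatives SNX18 and SNX33 share the SH3, PX and BAR domains. SNX18 had signals of 6634, 7418 and 9732 and log2 ratios of 0.16 and 0.55, and SNX33 signals of 324, 571 and 545 and log2 ratios of 0.82 and 0.75, with 0.24 and -0.07 by its other probe set. Neither reached 2-fold by its brightest probe set.

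SNX6 is a subunit of the nexin dimers, 1 of SNX1 or SNX2 with 1 of SNX5 or SNX6, that carry the mannose 6-phosphate receptor from endosomes to the Golgi. Its signals were 10426 undifferentiated, 35777 at PMA 3 days and 26326 at PMA 8 days. PMA 3 days is the highest of the arrays and undifferentiated the lowest. That is 3.43-fold and 2.52-fold over undifferentiated, and the other probe set gave log2 ratios of 2.31 and 1.61. SNX5, which can take the place of SNX6 in the dimer, had signals of 10908, 8980 and 10616 and log2 ratios of -0.28 and -0.04 by its brightest probe set. The other SNX5 probe sets above the floor ranged from -0.82 to 0.31 at PMA 3 days and from -1.43, a bound, to 0.03 at PMA 8 days. The dimer partners SNX1 and SNX2 had log2 ratios of 0.40 and 0.31 at PMA 3 days and of 0.51 and 0.16 at PMA 8 days. SNX1 probe sets disagreed in sign, since a further one gave -0.37 and -0.94.

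SNX7, a partner of SNX4 in recycling and autophagy, had signals of 2010 undifferentiated, 7332 at PMA 3 days and 6674 at PMA 8 days. It was 3.65-fold and 3.32-fold higher than in undifferentiated cells by its only probe set. SNX4 itself gave 4735, 4880 and 4743, close to equal on all 3 arrays. SNX30, the alternative partner of SNX4, had log2 ratios of 0.42 and 0.20.

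**Figure D2:**
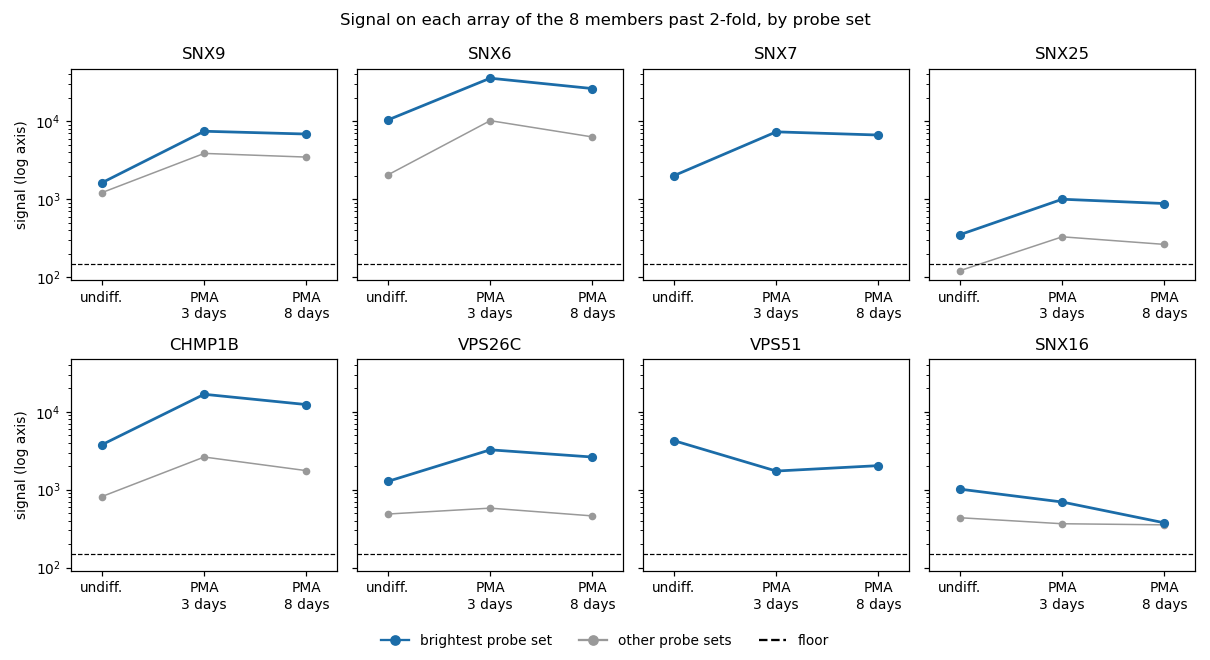
Signal (log axis) on the undifferentiated, PMA 3 days and PMA 8 days arrays of the 8 members past 2-fold, with a line per probe set above the floor on at least 1 array. The brightest probe set is in blue, the others are in grey and the dashed line is the floor of 149.8. Both probe sets of SNX9, SNX6 and CHMP1B are higher on the PMA arrays, whereas the dimmer probe sets of VPS26C and SNX16 are nearly level.

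Nexins with PXA and RGS domains, which sit at contacts between the endoplasmic reticulum and other membranes, included SNX25. Its signals were 352 undifferentiated, 1002 at PMA 3 days and 882 at PMA 8 days, 2.85-fold and 2.51-fold over undifferentiated. A dimmer probe set gave at least 2.20-fold and at least 1.76-fold, with the undifferentiated array at the floor, and 3 others were below the floor on all arrays. SNX13, SNX14 and SNX19, the other genes of the group, stayed under 2-fold, with log2 ratios of 0.47, 0.16 and 0.56 at PMA 3 days and 0.70, 0.10 and 0.33 at PMA 8 days. SNX14, linked to cerebellar ataxia and lipid droplets, had signals of 8421, 9426 and 9037. The medians of the 4 genes were 0.51 and 0.52.

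Nexins with a FERM domain, which read cargo tails directly, were close to level: SNX17 had signals of 3869, 3924 and 3885. SNX27, which links cargo to retromer through its PDZ domain, had log2 ratios of 0.24 and -0.02, and SNX31 was below the floor on all arrays. Of the 11 remaining nexins 0 were called higher at either time and SNX16 was called lower at PMA 8 days. Over all genes 10.3% were called higher and 10.7% lower at PMA 3 days, and 9.72% and 8.39% at PMA 8 days. SNX16, an endosomal nexin with a coiled coil, had signals of 1016 undifferentiated, 695 at PMA 3 days and 375 at PMA 8 days. Each PMA array is lower than the undifferentiated one, and the PMA 8 days array is the lowest, 2.71-fold below undifferentiated (log2 -1.44). Its other probe set, at 437, 366 and 354, had a log2 ratio of -0.30 at PMA 8 days. The highest of this group were SNX29, at a log2 ratio of 0.85 at PMA 3 days, and SNX22, at 0.96 (1.95-fold) at PMA 8 days. A dimmer SNX29 probe set, below the floor at PMA 3 days, gave -0.67 there, a bound. SNX22 signals were 214, 361 and 417, near the floor, and its other probe sets were below the floor on all arrays. SNX3, a retromer adaptor that helps to recycle the Wnt carrier Wntless and the transferrin receptor, had signals of 39914, 43158 and 44735. Its 4 probe sets ranged from -0.01 to 0.12 at PMA 3 days and carry the suffix that warns of probes shared with other transcripts. SNX10, which is needed by osteoclasts and binds the proton pump, had signals of 4889, 4552 and 4565 and log2 ratios of -0.10 at both times. Over all SNX genes 22 of 28 had a log2 ratio above 0 at PMA 3 days and 23 of 29 at PMA 8 days, against 42.4% and 45.1% of all genes. With poly-A control scaling these were 14 of 28 and 21 of 29. The SNX medians were then 0.04 and 0.30, against -0.40 and -0.09 over all genes under the same scaling.

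**Figure D3:**
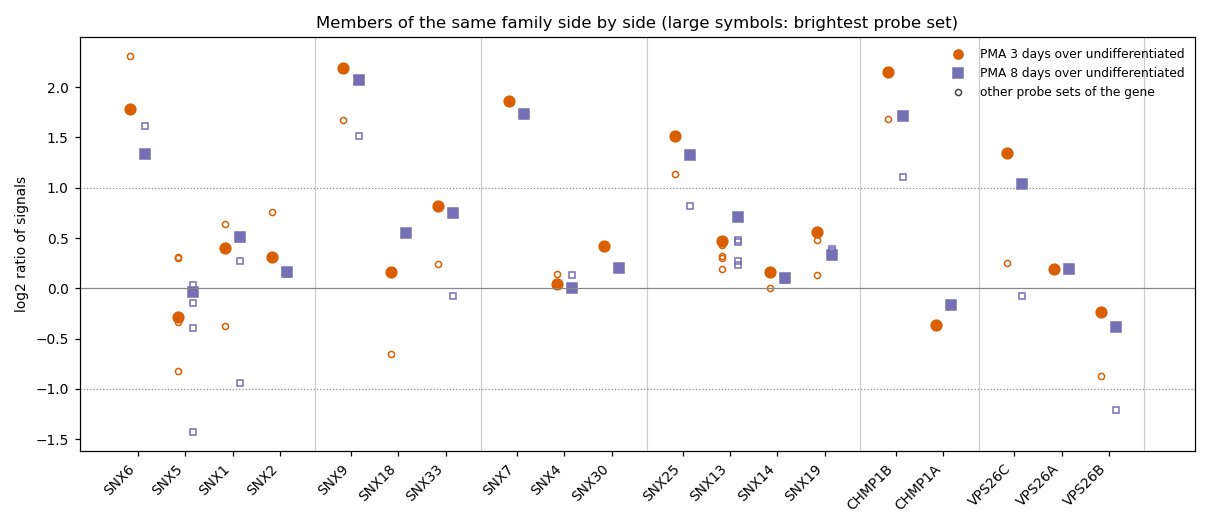
Log2 ratios (y axis) of genes of the same family in PMA 3 days over undifferentiated (circles) and PMA 8 days over undifferentiated (squares), with the brightest probe set as a large symbol and the others above the floor as small open ones. Some small symbols are bounds with 1 array at the floor, and dotted lines mark 2-fold. SNX6 stands above SNX5, CHMP1B above CHMP1A, and VPS26C above VPS26A and VPS26B.

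Retromer, the trimer of VPS35, VPS29 and a VPS26 subunit that returns receptors from endosomes, had 0 of 4 genes past 2-fold at either time. The shares of all genes were 10.3% higher and 10.7% lower at PMA 3 days, and 9.72% and 8.39% at PMA 8 days. VPS35 had signals of 13675 undifferentiated, 16567 at PMA 3 days and 18041 at PMA 8 days, VPS29 had 17796, 20113 and 21845, and VPS26A had 15010, 17097 and 17094. These are slightly higher on the PMA arrays, by log2 ratios between 0.18 and 0.40, which is within 1 SD of the probe set spread. The other VPS35 probe sets above the floor gave 0.42 to 0.52 at PMA 3 days and 0.37 to 0.60 at PMA 8 days, on both sides of that SD. A dim VPS29 probe set gave -0.14 and -0.55. VPS26B, the alternative to VPS26A, had log2 ratios of -0.24 and -0.38, and its other probe set -0.87 and -1.21. The retromer medians of 0.18 and 0.24 were -0.13 and 0.22 after poly-A control scaling, so the sign at PMA 3 days depends on the scaling. With that scaling the median of all genes at PMA 3 days was -0.40, against -0.12 without it.

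Retriever is a retromer-like trimer that works with SNX17 to recycle integrins. VPS26C, its arrestin-fold subunit, had signals of 1279 undifferentiated, 3248 at PMA 3 days and 2624 at PMA 8 days. Both PMA arrays are higher, 2.54-fold and 2.05-fold, and these were the smallest ratios among the higher genes. A second VPS26C probe set gave 487, 580 and 461, with log2 ratios of 0.25 and -0.08, so the call rests on the brighter one. VPS35L, the large subunit, had 3563, 3710 and 3162, close to level.

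ESCRT-I and ESCRT-II gather ubiquitin-marked cargo, and 0 of their 7 genes with a VPS symbol reached 2-fold. Over all genes 10.3% were called higher and 10.7% lower at PMA 3 days, and 9.72% and 8.39% at PMA 8 days. Subunits with other names are among the partners below, where MVB12B of ESCRT-I was called lower at PMA 8 days (-1.07). Among the ESCRT-I members the lowest was VPS28, a core subunit, at 10410, 6915 and 6252 (log2 ratios -0.59 and -0.74). The highest was VPS37A, 1 of the alternative VPS37 subunits, at 2642, 3799 and 4006 (0.52 and 0.60). VPS37C had signals of 9337, 8868 and 9612, VPS37B 910, 791 and 1103, and VPS37D was just above the floor on the undifferentiated array alone. Both ESCRT-II genes with a VPS symbol were lower on both PMA arrays. SNF8, the ESCRT-II subunit with another name, was close to level, with log2 ratios of -0.01 and 0.04. VPS36, which binds ubiquitin, had signals of 6300, 3588 and 3815 (log2 ratios -0.81 and -0.72), and VPS25 had 6124, 4614 and 3992 (-0.41 and -0.62). VPS36 passed 2-fold at PMA 3 days with poly-A control scaling.

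ESCRT-III proteins polymerize into the filaments that cut membrane necks, and the VPS4 ATPases take them apart. Of 11 such genes 10 passed the filter and CHMP1B alone was called, with medians of -0.03 at PMA 3 days and 0.07 at PMA 8 days. That is 10% called higher at each time, near the 10.3% and 9.72% of all genes. None was called lower, against 10.7% and 8.39% of all genes. CHMP1B, a late ESCRT-III subunit that recruits the microtubule-severing enzyme spastin, had signals of 3776 undifferentiated, 16754 at PMA 3 days and 12355 at PMA 8 days. PMA 3 days is the highest and both PMA arrays are more than 3-fold above the undifferentiated one. The ratios were 4.44-fold and 3.27-fold (log2 2.15 and 1.71), and the dimmer probe set gave 817, 2625 and 1755 (1.68 and 1.10). CHMP1A, its close relative, had signals of 1668, 1295 and 1488 and log2 ratios of -0.36 and -0.16. CHMP5 and CHMP2B followed CHMP1B at PMA 3 days, at 0.75 and 0.72, and had 0.65 and 0.52 at PMA 8 days. CHMP5 signals were 9808, 16509 and 15357. All 3 CHMP2B probe sets lay between 0.70 and 0.97 at PMA 3 days. CHMP4B, the main filament subunit, had 7965, 7879 and 9147, and CHMP2A, which caps the filament, had 8933, 8049 and 8527. CHMP6, which links ESCRT-II to the filament, had the lowest ratios, -0.45 and -0.57, and CHMP7, which acts at the nuclear envelope, had -0.41 and -0.24. VPS4A had log2 ratios of 0.51 and 0.56, and VPS4B of -0.04 and -0.14. CHMP4C was below the floor on all arrays.

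In the group of HOPS and CORVET, the tethers of late and early endosomes, 0 of 8 genes were past 2-fold, with medians of 0.23 and 0.02. VPS33B was counted in this group, although it pairs with VIPAS39 in a separate complex. Over all genes 10.3% were called higher and 10.7% lower at PMA 3 days, and 9.72% and 8.39% at PMA 8 days. After poly-A control scaling the PMA 3 days median was -0.08, against -0.40 over all genes. VPS8, a subunit of CORVET, was the highest, with signals of 1415, 2216 and 1871 (log2 ratios 0.65 and 0.40), and VPS16, a shared core subunit, the lowest, with 996, 623 and 695 (-0.68 and -0.52). VPS41, a subunit of HOPS, had 3545, 4464 and 4308. VPS33A had log2 ratios of 0.23 and 0.09, but a dimmer probe set, below the floor in undifferentiated cells, gave at least 1.28 and at least 1.39. VPS33B had -0.09 and -0.48.

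GARP and EARP share VPS51, VPS52 and VPS53, with VPS54 specific to GARP and VPS50 to EARP. VPS51 had signals of 4256 undifferentiated, 1734 at PMA 3 days and 2036 at PMA 8 days by its only probe set. Both PMA arrays are lower, 2.45-fold and 2.09-fold (log2 -1.30 and -1.06), and near each other. VPS52 had 4078, 3216 and 3997 and VPS54 had 4008, 3791 and 2770. The highest ratio by the brightest probe set was that of VPS53 at PMA 3 days (0.50) and of VPS50 at PMA 8 days (0.48). VPS53 had signals of 375, 529 and 324, near the floor. Of its 9 probe sets, 6 passed the filter at PMA 3 days and ranged from -0.57 to 0.50, with a median of 0.02. At PMA 8 days 7 passed it and ranged from -0.41 to 0.52. VPS50 had 2869, 3751 and 3992, while a dimmer probe set gave -0.76 and -0.95 and a further one -0.43 and 0.41. VPS51 was the one subunit of 5 past 2-fold, where 10.7% and 8.39% of all genes were called lower.

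Among the VPS13 lipid transfer genes 0 of 4 were called by the brightest probe set, and the medians were -0.22 and -0.44. The shares of all genes were 10.3% higher and 10.7% lower at PMA 3 days, and 9.72% and 8.39% at PMA 8 days. VPS13A, the gene of chorea-acanthocytosis, had signals of 1086, 644 and 621 (log2 ratios -0.75 and -0.81). Another VPS13A probe set, at 1240, 494 and 420, had -1.33 and -1.56, past 2-fold, and a further one passed it at PMA 8 days (-1.21). VPS13C had 11953, 8667 and 8238, and VPS13D the highest ratios, 0.36 and -0.03. VPS45, a partner of endosomal syntaxins in membrane fusion, had 3864, 7711 and 6492 and was just under the threshold at PMA 3 days, at 1.995-fold, and at 1.68-fold at PMA 8 days. VPS72, which despite its symbol is a subunit of chromatin remodelling complexes, had -0.28 and -0.42. VPS9D1, with -0.60 and -0.57, was barely above the floor on the PMA arrays. SNX29P2 was above the floor in undifferentiated cells alone, and VPS13C-DT nowhere.

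The arrays of the 2 PMA cultures differed little for these genes. Of 70 genes 68 were within 1.5-fold between PMA 8 days and PMA 3 days, 97.1%, against 88.1% of all genes. The lowest was SNX16, at a log2 ratio of -0.89, and the highest VPS37B, at 0.48. SNX6 and CHMP1B both had -0.44, SNX9 -0.12 and SNX7 -0.14. For SNX18 and SNX29 dimmer probe sets, below the floor at PMA 3 days, gave at least 1.19 and at least 1.25, where the brightest gave 0.39 and -0.07. Within 1.5-fold of undifferentiated were 71.8% of members at PMA 3 days and 73.6% at PMA 8 days, against 58.4% and 62.5% of all genes. Members passed the filter more often than genes at large, 70 of 76 against 13066 of 19775 between the PMA arrays. The part of signal level in these shares and in the shares of lower calls was not tested.

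**Figure D4:**
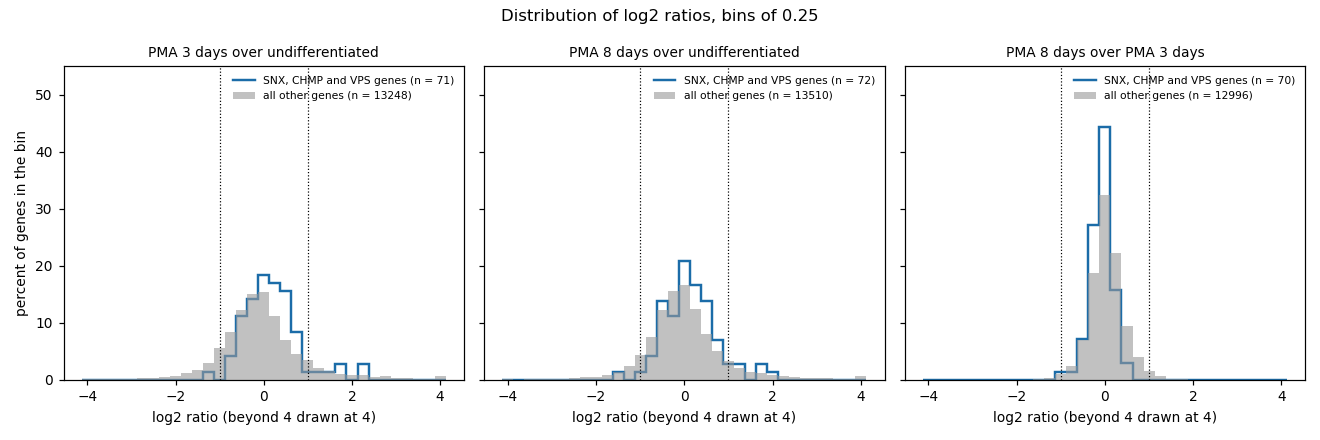
Percent of genes (y axis) by log2 ratio (x axis, bins of 0.25) for the SNX, CHMP and VPS genes (line) and all other genes (grey) in the 3 comparisons for genes that exceeded the floor on either array compared. Dotted lines mark 2-fold. Members called lower are few in the first pair of panels, and 0 of 70 members lie past 2-fold in the last.

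Probe sets of a gene could be set against each other for many members. Of 42 members with several probe sets above the floor at PMA 3 days, those of 4 (SNX20, VPS13A, VPS26C and VPS33A) lay on both sides of 2-fold, and of 43 at PMA 8 days those of 7 did (SNX5, SNX16, SNX25, VPS13A, VPS26B, VPS26C and VPS33A). In 0 members was 1 probe set called higher and another lower. For SNX20, a nexin of leukocytes that binds the selectin ligand PSGL-1, the brightest probe set gave -0.33 at PMA 3 days and a dimmer one 1.07. The pooled SD between probe sets of the same member was 0.33 and 0.38 in these comparisons, over 34 genes, and 0.27 for PMA 8 days over PMA 3 days. It holds only probe sets above the floor on every array, so some of the dimmer ones that disagreed are not in it.

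Genes that work with these complexes but have other names were followed through 6 lists. These lists were chosen with earlier results of these data known, so their shares of calls are a description only. Of 107 listed genes 98 were measured and 97 passed the filter. At PMA 3 days over undifferentiated 7 were called higher and 5 lower, 7.22% and 5.15% against 10.3% and 10.7% of all genes, with a median of 0.07 against -0.12. At PMA 8 days 6 were called higher and 7 lower, 6.19% and 7.22% against 9.72% and 8.39% of all genes, with a median of 0.01 against -0.07. Cargo receptors of retromer and nexins had 4 of 11 higher and 1 lower at PMA 3 days (10.3% and 10.7% of all genes), and 3 and 1 at PMA 8 days (9.72% and 8.39%). With poly-A control scaling the PMA 3 days counts were 2 and 1, against 7.37% and 18.6% of all genes. The mannose 6-phosphate receptor IGF2R, which brings lysosomal enzymes to endosomes and is carried by the SNX6 dimer, had signals of 12305, 27689 and 21954 (log2 ratios 1.17 and 0.84). The integrin subunit ITGB1, recycled by retriever, had 20172, 46146 and 48729 (1.19 and 1.27), the iron transporter SLC11A2 had 1.92 and 1.81, and LRP1, below the floor in undifferentiated cells, had at least 2.16 and at least 1.70. SORL1, a sorting receptor that is itself retromer cargo, had 7167, 1674 and 2283 (-2.10 and -1.65). In the ESCRT partners STAM of ESCRT-0 had log2 ratios of 1.13 and 1.16, and MVB12B of ESCRT-I -0.82 and -1.07, the only 2 past 2-fold among 19. In the WASH and CCC complexes, which act beside retromer and retriever, FKBP15 had 1.28 and 1.15 and COMMD3 -1.26 and -1.19, the only 2 among 19. With poly-A control scaling 0 genes of the ESCRT partner list and of the WASH and CCC list were higher at PMA 3 days, against 7.37% of all genes. Of 11 retromer regulators EHD1, a membrane-remodelling ATPase, was lower at both times (-1.21 and -1.56). RILP, which ties HOPS and dynein to late endosomes, was the only gene called among 15 tether and fusion partners (1.41 and 1.17). Among 22 phosphoinositide genes INPP4B, a lipid phosphatase, had 4029, 300.4 and 508.6 (-3.75 and -2.99), WDFY2 had -1.74 and -2.03, and PIKFYVE, the kinase that makes the late endosomal lipid, -0.92 and -1.02.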

How the data were processed

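Of the 54675 probe sets in the deposited value table, 62 controls were set aside. Per the submitters' processing notes the deposited intensity values were made with MAS5, whose settings are not given in the sources used here. Each array had a trimmed mean of 1000.1 with 2% left out at either end, which is read from the values. Per the labels' protocols 200 ng of RNA was labelled, and the growth medium held 10% serum. Of the rest, 41091 probe sets were listed with 1 gene and 1801 with several. Entrez IDs of all 183 member probe sets were found in RefSeq's gene table of GRCh38.p14, and 0 symbols changed.

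The brightest probe set has the highest mean log2 signal over the arrays after flooring. A gene entered a comparison when its probe set exceeded the floor on either array. Where 1 array is at the floor the ratio is a bound, written "at least". Signals of different probe sets are not on a common scale, so levels of different genes are not compared, and the brightest member of a complex was picked only as a rule for naming.

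The symbol rule alone set the members, but the rule and the lists were chosen with earlier results of these data known. Named are all members past 2-fold, the highest, lowest and brightest member of each complex, members whose probe sets lie on both sides of 2-fold, and listed partners past 2-fold. Some further members are named for their known role. Listed markers of 7 kinds without a probe set of 1 gene were not analysed here. The floor (40th or 60th percentile), the filter, the scaling and the choice of probe set were varied. The steps were tested on simulated data. Calculations used pandas 2.3.3 and numpy 2.4.6 in Python 3.11.15, and figures matplotlib 3.10.9.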

Additional observations from a re-analysis of the deposited data

How the results depend on the processing

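SNX9, SNX6, SNX7 and CHMP1B were called higher at both PMA times under every alternative that gave them a value (10 each, 8 for SNX7), where the lowest log2 ratios were 1.67, 1.47, 1.56 and 1.68 at PMA 3 days and 1.51, 1.27, 1.71 and 1.10 at PMA 8 days. VPS26C was not called by the median of its probe sets (0.80 and 0.48) or by its second-brightest probe set, which gave 0.25 at PMA 3 days and reversed at PMA 8 days (-0.080). SNX16 was not called by these settings at PMA 8 days (-0.87 and -0.30), nor SNX25 by its second-brightest (0.82). VPS51 was not called at PMA 8 days after centring on the median gene (-0.99). Without probe sets whose suffix (_s_at or _x_at) warns of shared probes, 4 members were higher at each PMA time, against 6. SNX7 and SNX25 then had no probe set above the floor. The brightest probe sets of SNX9, SNX6, SNX7, SNX25 and CHMP1B all carry the _s_at suffix.

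Members lower at PMA 3 days numbered 2 with the 40th percentile floor, 3 with poly-A control scaling and 0 by second-brightest probe sets, against 1. At PMA 8 days they numbered 1 after centring (SNX16) and 1 by second-brightest probe sets (VPS26B), against 2. By the median over the probe sets of a gene they numbered 2 as well, but were VPS13A (-1.01) and VPS51. Poly-A control scaling put the split at PMA 3 days at 6 higher and 3 lower (6 and 1 as reported), and centring put that at PMA 8 days at 7 and 1 (6 and 2 as reported). Of all calls among all genes at PMA 3 days 28.3% were higher with poly-A control scaling and 59.3% after centring, against 49.1%, and between the PMA arrays 92.5% with poly-A control scaling, against 59.5%. By second-brightest probe sets 2 members (SNX18 and SNX29) were higher at PMA 8 days over PMA 3 days, against 0. Poly-A control scaling gave a median of -0.40 for all genes and -0.15 for members at PMA 3 days, against -0.12 and 0.16, and between the PMA arrays 0.31 and 0.22, against 0.04 and -0.06. Second-brightest probe sets exist for fewer genes. The other causes were not tested. No paired analysis was possible because each condition had 1 array, and no array could be left out.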

Other observations

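Some probe sets name a member beside other genes and were kept out of the comparisons. CHMP3, an ESCRT-III subunit, is read only by 3 probe sets listed together with the readthrough gene RNF103-CHMP3. Their log2 ratios were 0.36 to 0.39 at PMA 3 days over undifferentiated and 0.21 to 0.45 at PMA 8 days over undifferentiated. The 2 probe sets listed with both SNX8 and MIR6836 were above the floor on all 3 arrays, with 473 and 692 signal units in undifferentiated cells, 542 and 749 at PMA 3 days and 515 and 688 at PMA 8 days. The probe set listed with SNX8 alone had 52.5 in undifferentiated cells, 92.1 at PMA 3 days and 157 at PMA 8 days. The antisense transcripts VPS9D1-AS1 and VPS13A-AS1 were below the floor on all arrays.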
